A study of Rattus norvegicus with 12 samples.

Results

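The genes described here encode the machinery that brings secretory proteins into the endoplasmic reticulum (ER), folds them there and removes those that fail to fold, together with the unfolded protein response (UPR) that adjusts this machinery to its load. The set was fixed as a list of 56 gene symbols, of which 52 had a probe set on the array, out of 10411 measured genes. Atf6, Ern1, Stt3a and Derl3 had no probe set with that symbol and were not analysed here. Each gene was represented by the probe set with the highest mean over the 12 arrays, which mattered for the 9 members that had several (64 probe sets in all). The members were ordered into 7 steps: sensors and transcription factors (2 measured), translocation and signal peptide cleavage (12), glycosylation (4), chaperones and co-chaperones (10), the lectin cycle (3), disulfide and proline folding enzymes (12) and ER-associated degradation, ERAD (9).

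RNA came from the whole pancreas of adult male Wistar rats, and the arrays were Affymetrix RAE230-A, with 3 arrays for each of 4 groups. Healthy untreated (HU) and diabetic untreated (DU) rats received no tungstate, and the diabetes of the DU and diabetic treated (DT) rats had been induced with streptozotocin (STZ), a toxin of beta cells. Healthy treated (HT) and DT rats drank sodium tungstate, at 0.7 g/L for a week and at 2 g/L for 4 to 5 weeks more by the sample labels. The study's methods differ here, with the higher concentration throughout and no lower first week. In the study, tungstate lowered the glycemia of the diabetic rats and restored it only in part. Every array was hybridized with the pooled RNA of 3 rats, so p-values measure the spread between pools. The pancreas is mostly acinar tissue, with beta cells a minor part, and in such bulk RNA fewer cells of a type and less RNA per cell cannot be told apart. Values are RMA signals on a log2 scale, so a difference of 1 is a doubling, and "called" means an adjusted p under 0.05 in limma over all 15866 probe sets tested.

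Acinar cells make more secretory protein than almost any other cell, and all of it enters the ER through the Sec61 channel. Signal peptides are cut off during entry, sugars are added by the oligosaccharyltransferase, and chaperones such as BiP (Hspa5), the lectins calnexin and calreticulin, and the disulfide isomerases fold the chain. When unfolded protein builds up, the sensors IRE1 (Ern1), ATF6 and PERK (Eif2ak3) respond, and IRE1 splices the mRNA of Xbp1 into the form that encodes an active transcription factor. XBP1 is required for the acinar secretory apparatus, and it drives genes of folding and of ERAD, the route by which misfolded proteins are passed through a membrane complex of SEL1L and the ligase HRD1 (Syvn1) back to the cytosol.

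XBP1 and ATF6 act through short promoter elements, and these are shown because 11 of the members hold a full element in their promoters. The ER stress element, ERSE, is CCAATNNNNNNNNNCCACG, and ERSE-II is ATTGGNCCACG. Promoters were 300 bases long, 250 before and 50 after the annotated start, taken from RefSeq on GRCr8, and both strands were searched. A promoter was present for 46 of the 52 measured members. Of these, 8 held an ERSE (17.4%), against 18 of 19005 protein-coding promoters (0.0947%), and 3 held an ERSE-II (6.52%, against 0.0684%). The sites are printed in the direction of the motif, with the fixed letters in capitals.
Xbp1, ERSE: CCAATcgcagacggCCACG
Hspa5, ERSE: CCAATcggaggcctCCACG
Dnajc3, ERSE: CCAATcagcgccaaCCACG
Calr, ERSE: CCAATcagggtcgaCCACG
Canx, ERSE: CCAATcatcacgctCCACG
Creld2, ERSE: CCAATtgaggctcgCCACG
Ero1b, ERSE: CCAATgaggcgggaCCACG
Hsp90b1, upstream ERSE: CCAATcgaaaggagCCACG
Hsp90b1, downstream ERSE: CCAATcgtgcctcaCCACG
Herpud1, ERSE-II: ATTGGgCCACG
Dnajb11, ERSE-II: ATTGGcCCACG
Hyou1, upstream ERSE-II: ATTGGcCCACG
Hyou1, downstream ERSE-II: ATTGGgCCACG

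In GRCr8 the ERSE of Xbp1 lay at chr14:84604558-84604576, plus strand, beginning 65 bases before the start, that of Hspa5 at chr3:38452973-38452991, plus strand, beginning 43 bases before the start, and that of Dnajc3 at chr15:102432534-102432552, plus strand, beginning 133 bases before the start. Of other elements searched, the UPRE (TGACGTGG) occurred in 2 members, Hyou1 and Vcp (4.35%, against 0.642% of all promoters), and the amino acid response core TGATGNAA in 1, Herpud1 (2.17%, against 3.36%). The 3 members whose signals fell in diabetes and rose with tungstate, Xbp1, Sel1l and Sdf2l1, are shown with the 250 bases before their starts. Capitals mark the 2 parts of an ERSE, CCAAT and CCACG, on either strand, so that they also read ATTGG and CGTGG.
Xbp1 (chr14:84604373-84604622, plus strand): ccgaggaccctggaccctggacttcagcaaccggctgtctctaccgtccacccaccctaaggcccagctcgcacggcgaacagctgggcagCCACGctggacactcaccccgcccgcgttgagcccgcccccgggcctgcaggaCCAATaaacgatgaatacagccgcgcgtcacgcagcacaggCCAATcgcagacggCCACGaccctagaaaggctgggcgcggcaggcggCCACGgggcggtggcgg
Sel1l (chr6:116510362-116510611, minus strand): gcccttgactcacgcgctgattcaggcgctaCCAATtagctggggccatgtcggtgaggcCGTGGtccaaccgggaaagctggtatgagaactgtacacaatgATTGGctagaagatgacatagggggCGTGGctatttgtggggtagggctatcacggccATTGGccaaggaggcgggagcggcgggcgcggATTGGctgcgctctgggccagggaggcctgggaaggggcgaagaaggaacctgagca
Sdf2l1 (chr11:97376628-97376877, plus strand): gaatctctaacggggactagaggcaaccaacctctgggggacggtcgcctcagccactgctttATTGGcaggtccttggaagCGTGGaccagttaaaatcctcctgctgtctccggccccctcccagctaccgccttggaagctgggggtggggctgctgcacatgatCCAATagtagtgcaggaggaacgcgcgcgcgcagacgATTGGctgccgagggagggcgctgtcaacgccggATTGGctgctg

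The Xbp1 stretch held 2 copies of CCAAT and 3 of CCACG, of which a pair stood at the ERSE spacing. The Sel1l stretch held 4 and 2, and the Sdf2l1 stretch 4 and 1, in neither case at the spacing of an ERSE or ERSE-II. CCAAT alone occurred in 67.4% of the members' promoters and in 38.3% of all promoters, and CCACG alone in 76.1% and 36%. These are matches of letters within a fixed window, and binding was not measured.

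**Figure D1:**
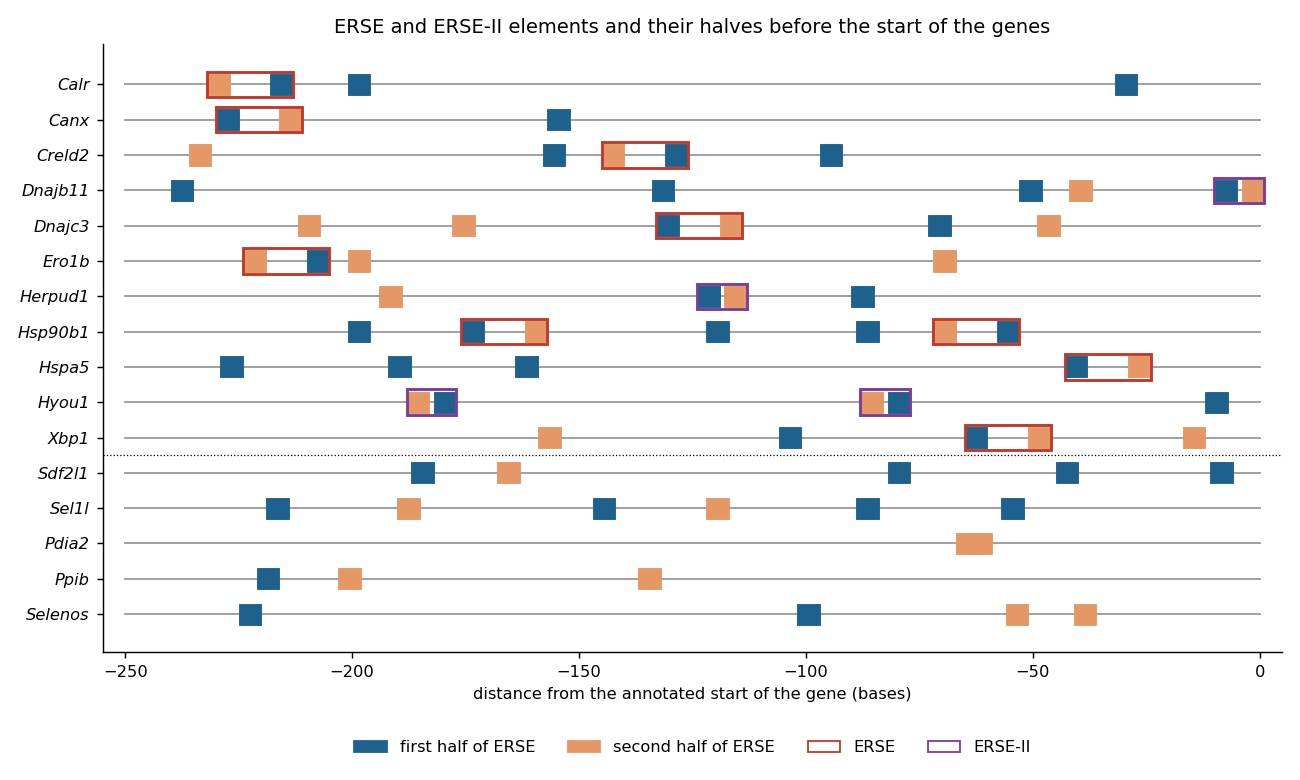
Positions of ERSE (red boxes) and ERSE-II (purple boxes) and of the 2 parts of an ERSE (blue and orange blocks) in the 250 bases before the annotated start, in bases, for the 11 members with an element (above the dotted line) and the other called members with a promoter (below it). Neither Sel1l nor Sdf2l1, which lie below the line, has the 2 parts at the element's spacing.

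A small number of the members were called in DU vs. HU. Among the 52, 5 were lower (Sel1l, Pdia2, Sdf2l1, Xbp1 and Ppib) and 1 higher (Dnajc3), while 1.73% of all probe sets were called lower and 1.47% higher. The calls of Ppib and Dnajc3 were each lost on leaving out any single array of the comparison. The median member differed by -0.06 on the log2 scale, beside -0.02 for all probe sets, and by -0.28 when scan day was blocked. That block linked DU1 with HU3 only, through DT and HT arrays. No scan day held both an HU and a DU array, so diabetes and scan day cannot be told apart in this comparison. The calls under the block are given below. At an unadjusted p under 0.05, 16 members were lower and 4 higher, with 11.5% and 8.75% of all probe sets as the background. All 3 DU arrays lay below all 3 HU arrays for 15 members and above them for 3, and these shares have as background 16.9% and 12.5% of all probe sets.

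Every member called for tungstate in diabetic rats (DT vs. DU) was higher. Sel1l, Sdf2l1 and Xbp1 rose and none fell, where 0.655% of all probe sets were called higher and 0.46% lower. The median member was 0.18 higher, beside 0.00 over all probe sets, and 44 of 52 members lay above 0. At an unadjusted p under 0.05, 16 members were higher and 0 lower, with 5.29% and 4.59% as the background. DT arrays were all above DU arrays for 16 members and all below for 0, with 7.58% and 6.28% as the background. By the B-statistic above 0, the criterion of the study's methods, the same 3 were called and none downward. The comparisons DU vs. HU and DT vs. DU share the 3 DU arrays, so a member low on those arrays counts in both.

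In healthy rats no change with tungstate was detected in the members (HT vs. HU). None was called by adjusted p or by the B-statistic, and 0.0063% of all probe sets were called. None had an unadjusted p under 0.05, where 2.65% of all probe sets were higher and 2.77% lower. The median member lay at -0.01. Against healthy untreated and healthy treated rats, the DT group had member medians of 0.12 and 0.11. The first turned to -0.04 when scan day was blocked and to -0.09 within chip lot 1, and was 0.01 when chip lot was blocked. In DT vs. HU 2 members were higher, Dnajc3 and Selenos, with 0.756% of probe sets called higher and 0.561% lower. In DT vs. HT Dnajc3 alone was called, upward, with 0.637% and 0.296% as background. The interaction, the tungstate effect in diabetic minus that in healthy rats, was called for Sel1l, Xbp1 and Sdf2l1, all positive, where 0.271% of probe sets were called positive and 0.151% negative.

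**Figure D2:**
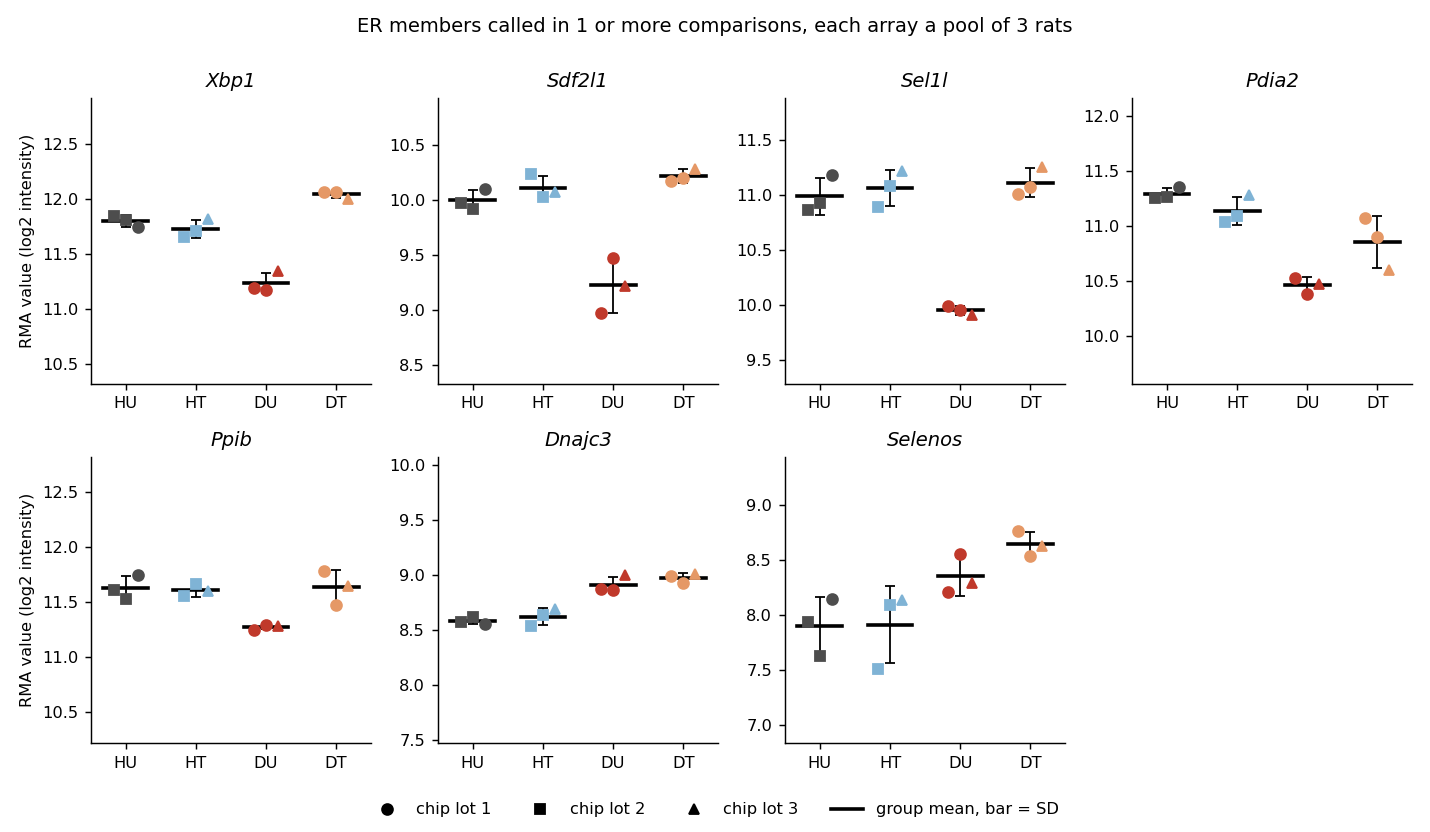
RMA value (log2 intensity) on every array for the 7 called members, by group, with marker shape giving the chip lot, thick lines the group mean and thin bars the SD (n = 3 pools). The DU arrays of Sel1l, Xbp1, Sdf2l1 and Pdia2 lie below every HU array, and the DT arrays of these 4 lie above every DU array.

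Xbp1 (probe set 1371249_at) had the tightest signals of the transcription factor step. Its values were 11.84, 11.81 and 11.74 in HU, 11.65, 11.71 and 11.81 in HT, 11.19, 11.17 and 11.34 in DU, and 12.06, 12.06 and 11.99 in DT. The DU arrays were the lowest 3 of 12 and the DT arrays the highest 3, with no overlap with any other group. Xbp1 fell in diabetes by 0.57 ± 0.08 (SE) on the log2 scale, a signal 1.48-fold lower (limma, adjusted p = 0.00113), and rose with tungstate by 0.81 ± 0.08, or 1.75-fold (adjusted p = 6.23e-05). DT exceeded HU by 0.24, with a 95% interval of 0.08 to 0.41, which did not pass the adjusted test (0.146). The interaction was 0.88 ± 0.11 (adjusted p = 0.0017). The array signal does not separate spliced from unspliced Xbp1 mRNA.

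The PERK gene Eif2ak3 (1368326_at), the other member of the step, was not called in any comparison. Its values were 6.84, 6.48 and 6.92 in HU, 6.67, 6.98 and 6.62 in HT, 7.10, 6.95 and 6.61 in DU, and 6.86, 6.33 and 6.88 in DT. The 4 groups overlapped throughout, and it differed by 0.14 for diabetes and by -0.20 for DT vs. DU.

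Translocation and signal peptide cleavage held no called gene. These 12 members include the Sec61 channel subunits, the TRAP complex (Ssr1 to Ssr4) and the signal peptidase. The median of the step was -0.06 for DU vs. HU but 0.25 for DT vs. DU, where 11 of 12 lay above 0 and the range ran from -0.04 (Spcs1) to 0.39 (Ssr2). The first of these medians was -0.16 when scan day was blocked, -0.12 when chip lot was blocked and -0.26 within chip lot 1, and the second ran from 0.16 to 0.25 under the same settings and within chip lot 3. At an unadjusted p under 0.05, 5 of the 12 were higher in DT vs. DU and 3 were lower in DU vs. HU, where 5.29% and 11.5% of all probe sets were.

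Ssr2 (1373185_at), a TRAP subunit, gave 9.93, 9.90 and 10.02 in HU, 9.86, 9.96 and 10.14 in HT, 9.67, 9.94 and 9.88 in DU, and 10.29, 10.16 and 10.22 in DT. The DT arrays were above all 9 others, and the difference to DU of 0.39 ± 0.09 did not pass the adjusted test (0.0706). Sec11c (1370817_at), a catalytic subunit of signal peptidase, gave 10.14, 9.98 and 10.32 in HU, 10.03, 10.11 and 10.19 in HT, 9.89, 9.85 and 9.65 in DU, and 10.03, 9.73 and 10.14 in DT. DU lay below HU on all arrays, by 0.35 (adjusted p = 0.120), and DT overlapped with both.

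No oligosaccharyltransferase subunit was called in any comparison. Ddost (1372247_at) gave 10.50, 10.47 and 10.78 in HU, 10.35, 10.51 and 10.49 in HT, 10.11, 10.09 and 10.44 in DU, and 10.79, 10.59 and 10.57 in DT. The DU arrays lay below those of HU and of DT, with differences of -0.37 to HU (adjusted p = 0.0994) and of 0.44 between DT and DU (0.118). Dad1 (1367465_at), the small subunit, gave 10.07, 10.26 and 10.28 in HU, 10.08, 10.25 and 10.58 in HT, 10.24, 10.33 and 10.43 in DU, and 10.48, 10.32 and 10.66 in DT. All DT arrays of Dad1 were above all HU arrays, by 0.28 (95% interval 0.02 to 0.55, adjusted p = 0.274), and its DU and HT arrays overlapped with both. The ribophorins Rpn1 and Rpn2 differed from 0 by at most 0.13 both for diabetes and for tungstate in diabetic rats. Medians of the step were -0.04 for diabetes and 0.14 for tungstate in diabetes.

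Among the chaperones Sdf2l1 and Dnajc3 were called, and the principal members were not. Hspa5, BiP, the central Hsp70 of the ER and the textbook readout of the UPR, had a mean of 10.49 ± 0.31 (SD, n = 3) in HU, with 10.22 ± 0.64 for HT, 10.48 ± 0.16 for DU and 10.70 ± 0.05 for DT. Its difference was -0.02 in DU vs. HU, with a 95% interval of -0.53 to 0.50, and 0.23 in DT vs. DU, with an interval of -0.29 to 0.74. Hsp90b1, the ER Hsp90, differed by 0.18 and 0.10. Hyou1, an Hsp70-like exchange factor of BiP, was 0.43 below HU in DU (-0.75 to -0.10, adjusted p = 0.142). Manf, a secreted ER stress protein, was 0.49 higher in DT vs. DU (0.19 to 0.78, adjusted p = 0.150) and Dnajb11 0.28 higher (0.01 to 0.55, 0.475). For the step the median was -0.03 in diabetes, and 0.22 for DT vs. DU with 9 of 10 members above 0 in the latter.

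Sdf2l1 (1373043_at) encodes a soluble ER protein that works with BiP and its J-domain partner Dnajb11. Its values were 9.97, 9.92 and 10.11 in HU, 10.24, 10.03 and 10.07 in HT, 8.98, 9.47 and 9.22 in DU, and 10.17, 10.20 and 10.29 in DT. The DU arrays were the lowest 3 and lay clear of the other 9, and all 3 DT arrays were also above all 3 HU arrays, while HT overlapped with both. Sdf2l1 fell by 0.77 ± 0.11, or 1.71-fold, in diabetes (adjusted p = 0.00176), and with tungstate it rose by 1.00 ± 0.11, or 1.99-fold (0.000297). DT and HU differed by 0.22, with a 95% interval of -0.02 to 0.47. The interaction was 0.88 ± 0.16 (adjusted p = 0.0305), and it was lost on leaving out any of 10 arrays, that is all but HT1 and DU2, with adjusted p up to 0.0997.

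Dnajc3 (1370073_at), a BiP co-chaperone also known as an inhibitor of PERK, went the other way. It gave 8.57, 8.61 and 8.55 in HU, 8.53, 8.64 and 8.69 in HT, 8.87, 8.86 and 8.99 in DU, and 8.99, 8.92 and 9.003 in DT. All 6 diabetic arrays were above all 6 healthy arrays, whether or not tungstate was given. The log2 differences were 0.33 ± 0.07 in DU vs. HU (adjusted p = 0.0312), 0.39 in DT vs. HU (0.0231), 0.35 in DT vs. HT (0.0428) and 0.06 in DT vs. DU (0.872, 95% interval -0.10 to 0.22). The first of these calls was lost on leaving out any of the 6 arrays compared (adjusted p 0.0669 to 0.0966), the second without HU1, HU2, HU3 or DT1 (up to 0.0793), and the DT vs. HT call without any of its 6 arrays (0.0506 to 0.186).

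Dnajb9 (1387116_at), a J-domain co-chaperone of BiP that restrains IRE1, had the widest spread of the step. Its values were 7.16, 7.40 and 7.71 in HU, 7.03, 7.57 and 6.19 in HT, 7.65, 6.89 and 6.68 in DU, and 8.08, 7.78 and 7.02 in DT. Every group overlapped with every other, and the difference of 0.55 ± 0.34 in DT vs. DU was not called (adjusted p = 0.674).

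The lectin cycle, in which calnexin, calreticulin and the glucosyltransferase Uggt1 retain glycoproteins until they are folded, held no called gene. Calr (1398750_at) gave 9.66, 9.56 and 10.02 in HU, 9.58, 10.17 and 9.80 in HT, 9.15, 9.30 and 9.49 in DU, and 9.50, 9.72 and 9.62 in DT. Uggt1 (1368953_at) gave 7.36, 7.36 and 7.59 in HU, 7.58, 7.29 and 7.11 in HT, 6.85, 6.86 and 7.35 in DU, and 7.20, 7.38 and 7.21 in DT. For both genes, and for Canx, the DU arrays lay below the HU arrays, and the DT arrays overlapped with those of HU. The margin was narrow for Uggt1 (DU3 7.349, HU2 7.355) and for Canx (DU2 9.363, HU2 9.364). The differences in DU vs. HU were -0.43 for Calr (adjusted p = 0.138), -0.41 for Uggt1 (0.131) and -0.26 for Canx (0.28). Other probe sets of Canx gave -0.13 and -0.12 there. In DT vs. DU they gave -0.09 and -0.08, where the probe set used gave 0.08. The step's median of -0.41 was the lowest of the 7 in DU vs. HU, on 3 genes, and in DT vs. DU it was 0.24.

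The disulfide and proline folding enzymes had a median of -0.12 in DU vs. HU, against 0.10 for DT vs. DU. Pdia2 (1392798_at) encodes the pancreas-specific disulfide isomerase of acinar cells. It gave 11.25, 11.27 and 11.35 in HU, 11.04, 11.09 and 11.28 in HT, 10.53, 10.38 and 10.47 in DU, and 11.07, 10.90 and 10.60 in DT. DU lay below every other array, and DT lay between DU and HU without touching either. Pdia2 fell by 0.83 ± 0.11, or 1.78-fold, in DU vs. HU (adjusted p = 0.000923). In DT it was 0.40 above DU (0.146, 95% interval 0.16 to 0.63) and 0.43 below HU (0.0727, interval -0.67 to -0.20), so neither remaining difference was called.

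Ppib (1369934_at), cyclophilin B, a proline isomerase of the ER, gave 11.61, 11.53 and 11.74 in HU, 11.55, 11.66 and 11.60 in HT, 11.24, 11.29 and 11.28 in DU, and 11.78, 11.47 and 11.64 in DT. The DU arrays were below all others, and the other 3 groups overlapped. The fall of 0.35 ± 0.09 in DU vs. HU was at the threshold (adjusted p = 0.0499) and was lost on leaving out any of the 6 arrays (0.0652 to 0.153). In DT vs. DU the difference was 0.36 (0.0901).

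Erp29 (1387031_at), a folding factor of the same step, gave 8.26, 8.09 and 8.85 in HU, 8.63, 8.68 and 8.57 in HT, 7.96, 7.89 and 8.03 in DU, and 7.95, 7.58 and 8.24 in DT. The DU arrays lay below the healthy ones and the DT arrays overlapped with DU. Its differences were -0.44 in DU vs. HU (adjusted p = 0.185) and -0.04 in DT vs. DU, so that the DT mean of 7.92 was as low as the DU mean of 7.96. The abundant isomerases P4hb, Pdia3, Pdia4 and Pdia6 differed by -0.27 to -0.06 in DU vs. HU and by -0.06 to 0.20 in DT vs. DU, and none was called. A second, dimmer probe set of Pdia3 was lower in DT vs. HU by 0.51 (adjusted p = 0.045), where the probe set used gave -0.20.

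The degradation step held the member with the largest change and also the members that went against it. Sel1l (1376073_at), the adaptor that holds the HRD1 ligase complex together, gave 10.87, 10.93 and 11.18 in HU, 10.90, 11.08 and 11.22 in HT, 9.99, 9.96 and 9.91 in DU, and 11.01, 11.07 and 11.26 in DT. The 3 DU arrays had an SD of 0.04 and lay below the other 9, which overlapped. Sel1l fell by 1.04 ± 0.11, or 2.05-fold, in diabetes (adjusted p = 9.38e-05), and tungstate raised it by 1.16 ± 0.11, or 2.24-fold, in diabetic rats (4.3e-05). DT and HU differed by 0.13, with a 95% interval of -0.10 to 0.35. The interaction was 1.09 ± 0.15 (adjusted p = 0.0041).

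Herpud1 (1367741_at), an ER membrane protein that recruits ERAD components and is induced by stress, gave 8.91, 9.18 and 9.47 in HU, 8.77, 9.58 and 8.38 in HT, 10.62, 10.35 and 9.44 in DU, and 10.19, 9.62 and 8.97 in DT. A pair of the DU arrays was above all healthy arrays and the remaining one was not, so DU overlapped with HU. Its difference of 0.95 ± 0.35 was the highest of the members in DU vs. HU, and -0.54 ± 0.35 was the lowest in DT vs. DU, neither called (adjusted p = 0.155 and 0.698).

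Selenos (1387915_at), a selenoprotein of the retrotranslocation complex, gave 7.94, 7.62 and 8.14 in HU, 7.50, 8.09 and 8.13 in HT, 8.21, 8.55 and 8.29 in DU, and 8.76, 8.54 and 8.62 in DT. Both diabetic groups were above both healthy groups on every array. The call was made in DT vs. HU only, with 0.74 ± 0.17 (adjusted p = 0.0469), and was lost on leaving out any of the 6 arrays (0.0592 to 0.160). In DU vs. HU the difference was 0.45 (0.154) and in DT vs. HT 0.73 (0.0582). Syvn1, the HRD1 ligase that SEL1L serves, was 0.46 higher in DU vs. HU (0.213), with DU arrays all above HU arrays, and so moved by value opposite to its partner. The median of the 9 members was 0.18 in DU vs. HU, against 0.29 for DT vs. DU. For Derl1, a channel component, the probe set used gave -0.34 in DU vs. HU (0.0667) while its 2 other probe sets gave 0.24 and 0.15, so that its direction was not settled.

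**Figure D3:**
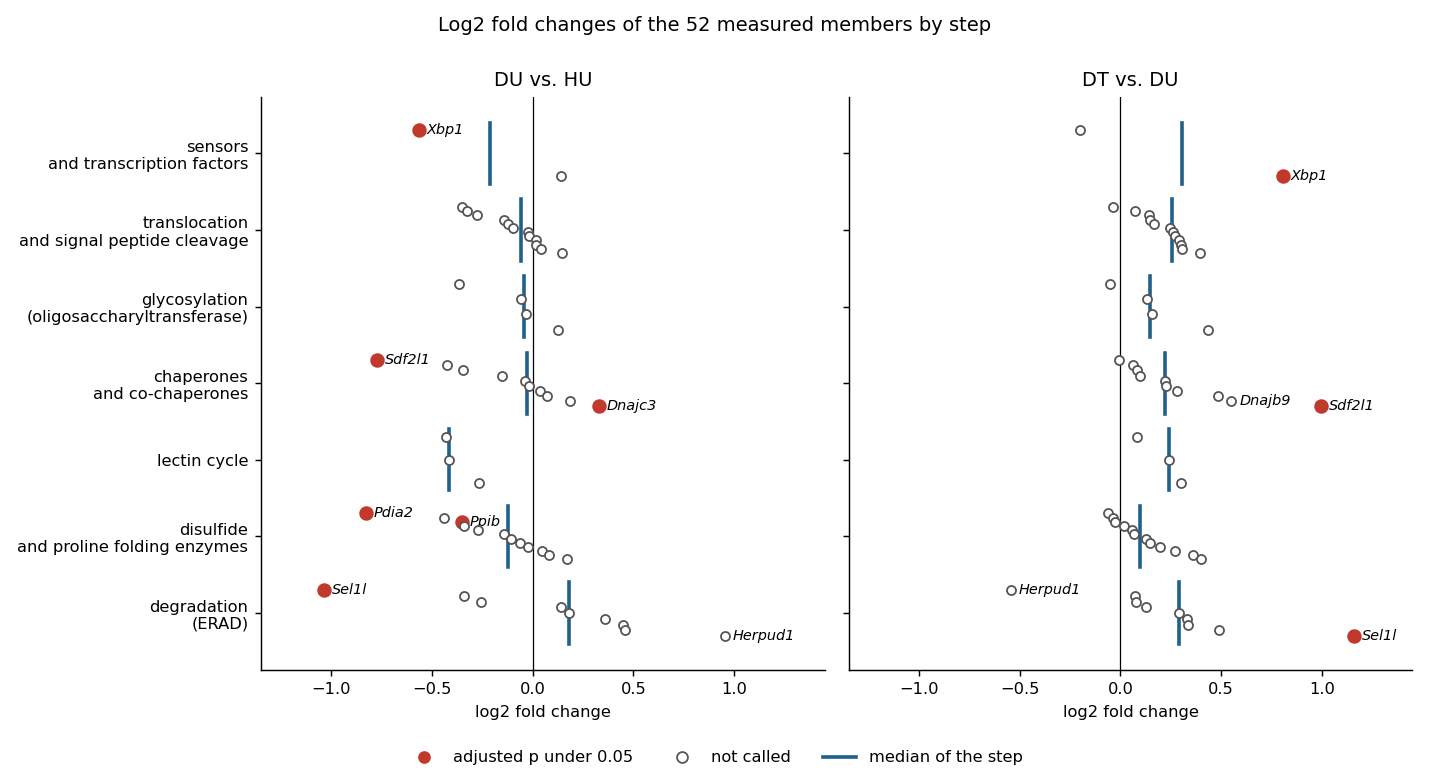
Log2 fold change (x axis) of the 52 members, grouped by step, with DU vs. HU on the left and DT vs. DU on the right, with filled points for adjusted p under 0.05 and a vertical line at the median of each step. In DU vs. HU the called Sel1l, Pdia2, Sdf2l1 and Xbp1 are the lowest of their steps, while the called Ppib lies above the uncalled Erp29, and in DT vs. DU all 7 step medians lie above 0, from 0.10 to 0.30.

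Set side by side, the steps differed more in DU vs. HU than in DT vs. DU. Their medians in DU vs. HU ran from -0.41 for the lectin cycle to 0.18 for degradation, and 6 of 7 were below 0. The 1 positive median, that of degradation, was 0.14 when chip lot was blocked. It turned to -0.12 when scan day was blocked and to -0.04 within chip lot 1, so its direction was not settled. In DT vs. DU they ran from 0.10 for the disulfide and proline folding enzymes to 0.30 for the sensors and transcription factors, on 2 genes. The differences between steps were described and not tested, since the genes of a step are not replicates of it. In DT vs. HU the medians were 0.22 for the chaperones, 0.27 for degradation and 0.13 for translocation, against -0.17 for the lectin cycle and -0.06 for the disulfide and proline enzymes. Within chip lot 1 the same 5 medians were -0.04, 0.08, -0.07, -0.41 and -0.21, and when scan day was blocked they were 0.31, 0.15, -0.03, -0.32 and -0.13. Both settings rest on HU3 alone among the HU arrays. When chip lot was blocked the medians were 0.18, 0.22, 0.04, -0.24 and -0.10. The sign for the chaperones thus turned only within chip lot 1, and that for translocation there and when scan day was blocked. Whether the batch or the HU3 array made these turns was not tested. A comparison with no shared array, DU vs. HU beside DT vs. HT, gave the same sign for 31 of 52 members (59.6%), beside 63.3% of all probe sets.

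**Figure D4:**
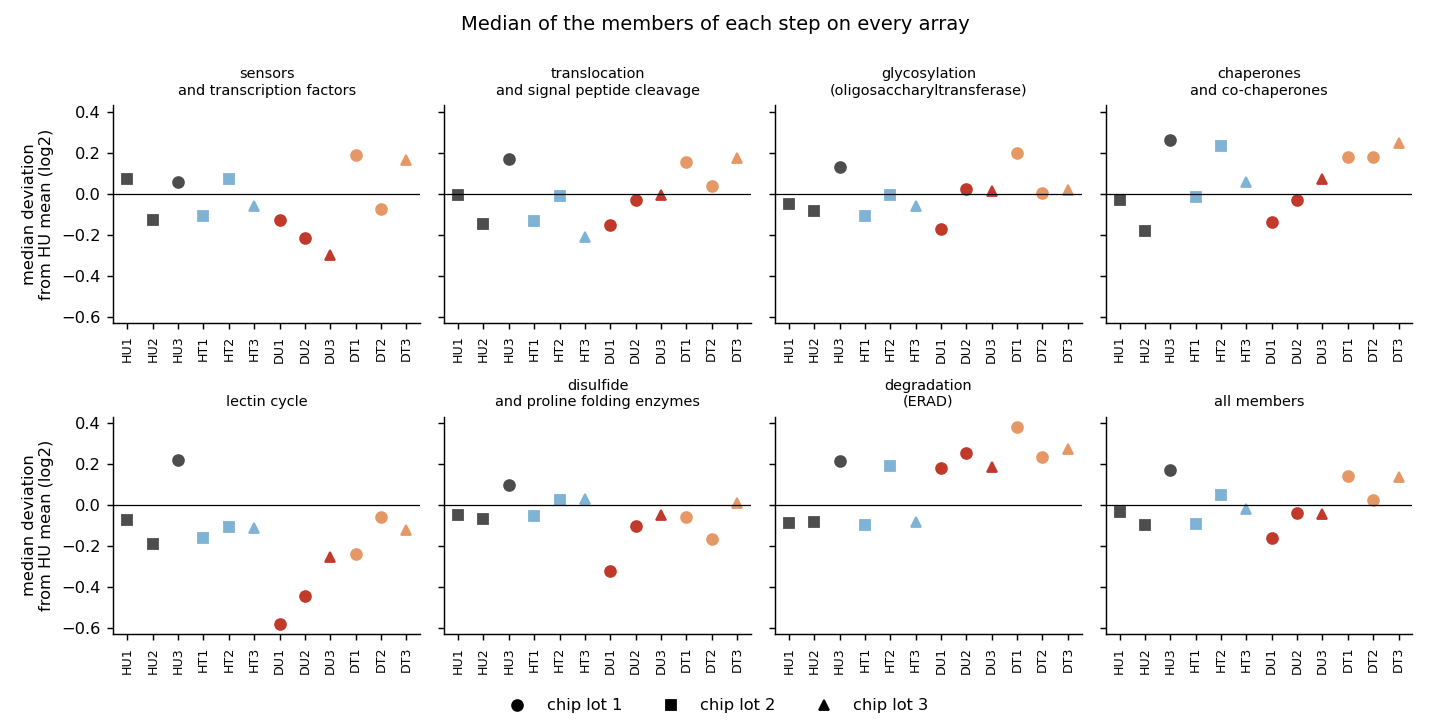
Median deviation of each step's members from their HU mean (log2 units, y axis) on each of the 12 arrays (x axis), with colour for the group and marker shape for the chip lot. HU3 stands highest among the HU arrays in 6 of the 7 steps, and the 3 DU arrays of the lectin cycle lie between -0.58 and -0.25.

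In DU vs. HU the members with an ERSE or ERSE-II did not move together, and neither did those without. The 11 such members had a median of -0.02 in DU vs. HU, with a range from -0.57 (Xbp1) to 0.95 (Herpud1), and of 0.10 in DT vs. DU. The 35 other members with a promoter had medians of -0.06 and 0.20, and in DU vs. HU they ran from -1.04 (Sel1l) to 0.46 (Syvn1). In DT vs. DU 8 of the 11 and 31 of the 35 lay above 0. Of those called in DT vs. DU, 1 (Xbp1) had an element and 2 (Sel1l and Sdf2l1) did not.

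Array and batch bore on these values. HU3 was the highest HU array for 45 of the 52 members, beside 37.3% of all probe sets, and it was the only HU array of chip lot 1, to which DU1, DU2, DT1 and DT2 also belonged. No scan day held both an HU and a DU array. A scan day block therefore links these groups only from DU1 to HU3, through DT and HT arrays. HU1 and HU2 shared their day with no other group, and DU2 and DU3 were each alone on theirs. Calls under this block rest on that link and do not decide the part of scan day. With the scan day as a block, no member was called in DU vs. HU, and the values were -0.75 for Xbp1 (adjusted p = 0.297), -0.96 for Sdf2l1 (0.224), -1.20 for Sel1l (0.114) and -1.42 for Pdia2 (0.0501). With the chip lot as a block the same 4 were called, and within chip lot 1 the differences were -0.56, -0.88, -1.20 and -0.90. In DT vs. DU, DU1, DT1 and DT2 were scanned on the same day, and within that day the values were 0.87 for Xbp1, 1.21 for Sdf2l1 and 1.05 for Sel1l. The scan day block draws its DT vs. DU difference from these same arrays, so it is not a further check. Within chip lot 1 these were 0.88, 0.96 and 1.07, within chip lot 3 0.66, 1.06 and 1.35, and all 3 were called with either block. Leaving out each array in turn changed none of the calls of these 3 genes in either comparison, nor that of Pdia2 in DU vs. HU.

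Some members differed with the chip lot within groups. In HT, DU and DT alike, the array of chip lot 3 was the lowest of its group for these 3 members. Its log2 difference from the mean of the other 2 arrays was -0.80 in HT, -1.04 in DU and -0.93 in DT for Herpud1. For Edem1 the same differences were -0.84, -0.70 and -0.61, and for Dnajb9 -1.11, -0.59 and -0.91. Being lowest on chip lot 3 in all 3 groups held for 3 of 52 members (5.77%) and for 8.43% of all probe sets, and being highest there for 3 others, Dad1, Dnajc3 and Pdia4 (5.77%, against 7.44%). Both shares were below those of all probe sets, so the pattern is not one of the members. HU held no array of chip lot 3. Hspa5 had a low HT3 array (9.54) but a DU3 array that was the highest of its group.

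**Figure D5:**
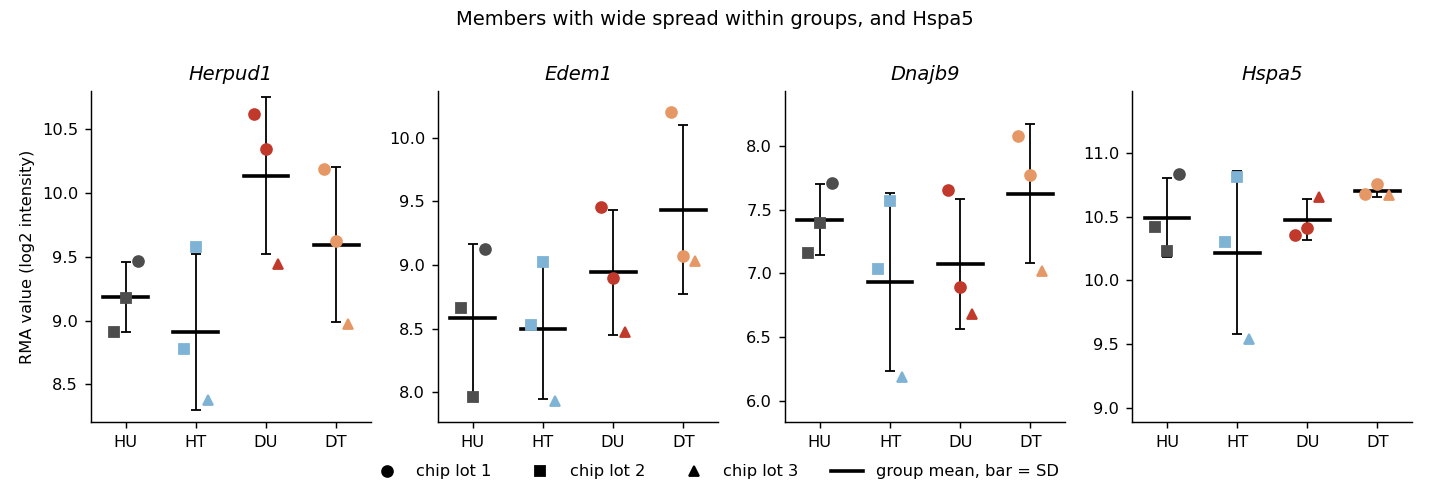
RMA value (log2 intensity) on every array for Herpud1, Edem1, Dnajb9 and Hspa5, by group, with marker shape for the chip lot, thick lines for the mean and thin bars for the SD (n = 3 pools). Triangles, chip lot 3, are the lowest of HT, DU and DT in the first 3 panels.

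Other genes of the same pathways, 82 measured from 5 lists, were set beside the members. In DU vs. HU 5 fell (6.1%, against 1.73% of all probe sets) and 1 rose (1.22%, against 1.47%). The oxidoreductases Qsox1 (by 0.86, adjusted p = 0.0265) and Erp44 (by 0.58, 0.0318), the torsin Tor1a (by 0.59, 0.0025), the protease Mbtps1 that activates ATF6 (by 0.40, 0.0418) and the ER membrane protein Tmbim6 (by 0.71, 0.0009) fell. Nupr1, a stress-induced transcriptional regulator, rose by 1.44 (0.001). In DT vs. DU 2 rose (2.44%, against 0.655%), Tor1a by 0.51 (0.0109) and Trib3, a pseudokinase induced by ATF4, by 0.69 (0.0218), while Nupr1 was 0.79 lower (0.082) without a call. The 82 genes had a median of 0.10 in DT vs. DU, and 58 lay above 0.

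In DT vs. HU, Trib3 (1.18, adjusted p = 0.0011), the SRP subunit Srp9 (0.82, 0.0227) and the oligosaccharyltransferase subunit Ostc (0.49, 0.0493) were higher and Tmbim6 was lower (by 0.42, 0.0469). In DT vs. HT, Trib3 (0.95, 0.0045), Srp72 (0.75, 0.0206) and Sec62 (0.74, 0.0265) were higher. Of the PERK branch, Atf4 differed by 0.20 for diabetes and by 0.14 for DT vs. DU, Ddit3 by -0.13 and -0.09, and Atf3 by -0.03 and 0.00, none called. None of the 82 was called in HT vs. HU or in the interaction. The largest uncalled changes in DT vs. DU were 0.53 for Srp9, 0.37 for Krtcap2, 0.69 for Qsox1, 0.45 for Os9 and -0.79 for Nupr1, in their lists.

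Cell type markers moved beside some of these results. The 22 of 29 acinar markers measured had a summed signal of 18.21 in HU, 18.12 to 18.18 in DU and 18.19 to 18.25 in DT on the log2 scale, so every DU array was below every HU and DT array. Of these markers 11 had means above 14, near the highest value on any array of 14.56, which leaves the sum little room to move. The mean of their log2 values was 13.04 to 13.11 in HU, 12.53 to 12.64 in DU and 12.92 to 13.07 in DT. The amylase genes Amy1 and Amy2a3 differed by -6.09 and -5.18 in DU vs. HU, and by 3.97 and 5.01 in DT vs. DU, all called. The zymogen granule gene Cuzd1 fell by 0.51 (adjusted p = 0.001) and rose by 0.76 (3.54e-05), as Xbp1, Sel1l and Sdf2l1 did, and Prss2 was called 0.45 higher in DU vs. HU. The median acinar marker differed by 0.00 in DU vs. HU and by 0.03 in DT vs. DU. The 13 of 17 islet markers summed to 14.70 to 14.82 in HU, 12.24 to 12.43 in DU and 12.20 to 13.54 in DT, with 6 called lower and 1 higher in DU vs. HU. In DT the islet sum was below every HU array, and the means of Sel1l, Sdf2l1 and Xbp1 were above their HU means. The part of acinar or islet cells in the results was not tested.

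Plasma cells, which also rely on XBP1, and B cells were represented together by 2 of 11 markers. The sum of these markers was 8.68 to 8.78 in HU, 8.33 to 8.45 in DU and 8.21 to 8.41 in DT. Endothelial markers (4 of 6) summed to 8.76 to 8.95, 8.58 to 8.62 and 8.41 to 8.72 in the same groups, and blood markers (3 of 6) to 11.54 to 12.37, 10.70 to 11.06 and 10.67 to 11.39. All DU arrays were below all HU arrays in these 3 sums, as for Xbp1, Sel1l and Sdf2l1. Between DT and DU the ranges of these sums overlapped. By a different measure, the median log2 fold change of each list, DT vs. DU gave -0.09, -0.02 and 0.02. Stellate and matrix markers were lower in DT vs. DU by a median of 0.40, with 0 of 10 above 0 and none called, and the medians were -0.09 for leukocyte markers (13 of 14), -0.01 for duct markers (7 of 9) and -0.02 for liver and fat markers (6 of 7). The part of these cell types in the results was not tested.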

How the data were processed

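Total RNA of rat pancreas was hybridized to 12 RAE230-A arrays, and the authors made the deposited log2 intensity values by RMA in the affy package, which adjusts background, normalizes by quantiles and summarizes each probe set. No source used here gives the version of that package. Precision is limited by the number of arrays, since there is no read depth.

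Of 15923 probe sets 57 controls were left out. Of the 15866 tested, 12783 had 1 gene symbol in the platform annotation, 312 several and 2771 none, and only the first were named. A mean per group was fitted with limma 3.58.1 in R 4.3.3 to all 12 arrays, with empirical Bayes and Benjamini-Hochberg adjustment over all probe sets of a comparison, at 0.05. The 95% intervals used the moderated SE, unadjusted. The fits were tested on simulated arrays. Scan days (6) and chip lots (3) were read from the deposited array records. The files deposited per array hold these records and no intensity.

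The members, steps, other pathway lists, markers and tests were chosen with earlier results of these data known. Per-array values are given for members called in any of 6 comparisons, for Xbp1 and Sel1l, and for the 2 members of each step with the largest change in DU vs. HU or DT vs. DU. Hspa5, Hsp90b1, Hyou1, Manf, Dnajb11, Syvn1, Edem1, Derl1, Canx, Pdia3 and the PERK branch genes were named in addition, after their values had been seen. Promoter sequences came from RefSeq (GRCr8). Protein sequences were not used here. The alternatives were quantile normalization, median centring, a filter on the dimmest 25% of probe sets, other probe set choices, a fit of only the 6 arrays of a comparison, trend and robust settings of limma, blocks for scan day, chip lot and replicate number, the B-statistic, and leaving out each array.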

Additional observations from a re-analysis of the deposited data

Results flagged for a closer look

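Xbp1, Sdf2l1 and Sel1l were singled out because the tungstate effect differed between diabetic and healthy rats by limma's interaction term. The log2 fold change of DT vs. DU exceeded that of HT vs. HU by 0.8801 for Xbp1 (adjusted p = 0.0017), by 0.8804 for Sdf2l1 (0.0305) and by 1.086 for Sel1l (0.0041). In HT vs. HU the same genes differed by -0.07, 0.12 and 0.07. The interaction call of Sdf2l1 was lost under 12 alternatives and kept under 9.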

How the results depend on the processing

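Of the counts and medians recomputed, 177 stayed the same, 23 were weaker, 7 moved by more than the spread between arrays and 1 was stronger. A count stayed the same if it was within a fixed ratio of the main count. A median stayed the same if it moved by less than that spread, whatever its sign. For single genes, 184 values stayed called and 71 were weaker, that is no longer called. No called value changed sign. The members' median in DT vs. HU did, and so did that in HT vs. HU, from -0.013 to 0.009 with the chip lot as a block. The causes were not tested. With the scan day as a block, 0 members were called in DU vs. HU, and the members' medians were -0.28 in DU vs. HU, -0.037 in DT vs. HU, -0.15 in HT vs. HU and 0.47 in the interaction, with 0 called in DT vs. HU and in DT vs. HT. In DT vs. HU 1 member was called after quantile normalization, median centring, with the replicate block or by the B-statistic, and 0 with only the 6 arrays or the chip lot as a block, and leaving out each array gave 0 to 1, the 1 without DT1 being another member and downward. In DT vs. HT 2 were called without dim probe sets and 0 with only the 6 arrays or the chip lot as a block, leaving out each array gave 0 to 1, and the median was 0.021 after quantile normalization and 0.039 with the chip lot. The interaction called 1 member after quantile normalization, and its median ran from 0.11 without HU3 to 0.28 without HU2. Under the interaction Xbp1 was not called after quantile normalization (0.69, adjusted p = 0.107) or with the scan day (0.0700). The interaction of Sdf2l1 was no longer called under 12 alternatives and stayed called under 9. That of Sel1l stayed called under all 21. Whether replicate numbers pair the arrays was not settled. Among 18 same-numbered pairs 5 correlated above 0.1, and 6 of 12 arrays correlated best with their own number, with no reference for either count. The replicate block left 5 members called for DU vs. HU, and for DT vs. DU 3. DT vs. DU called 3 members under every alternative that left all arrays in. Other probe set choices moved no call of Xbp1, Sel1l or Sdf2l1.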
